A study of Saccharomyces cerevisiae with 8 samples.

Results

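The response of wild-type budding yeast (Saccharomyces cerevisiae) to Calcofluor white was measured by RNA sequencing. It rests on 4 of the 8 libraries of the series, chosen by their labels, which name wild-type cells of strain BMA41. Of these, 2 were kept for 5 hours with 20 µg/ml of the dye and 2 for 5 hours with 0 µg/ml. Counts of marker genes, given further on, differ between these and the other 4 libraries, and the strain name was not tested. Cells in exponential growth were used, in chemically defined medium, and RNA with a poly(A) tail was sequenced. The other 4 libraries are labelled as a mub1 deletion derivative of BMA41, with 20 µg/ml (2 libraries) or 0 µg/ml (2 libraries) of the dye. They enter here through the shared estimate of the spread and through the test of whether the wild-type response differed from theirs. The labels give no mating type, no marker genes and no word on whether replicates were grown apart, so a p-value below speaks only of the variation among these libraries, which may be technical. The gene that the other genotype lacks, MUB1 (YMR100W, on the plus strand of chromosome XIII at 466300 to 468162, in 1 coding exon), had 40.97 and 48.6 CPM with the dye, against 41.6 and 43.3 CPM without it in the wild type (0.08 ± 0.13 on the log2 scale, ± SE), so the libraries labelled wild type carried it at levels whose ranges overlapped between the media. In the libraries labelled mub1 it had 0 and 0.0313 CPM with the dye, against 0.0413 and 0 CPM without it.

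Calcofluor white is a fluorescent dye that binds chitin and disturbs its assembly, so the cell wall weakens where it is laid down. Budding yeast senses wall damage through membrane sensors of the Wsc and Mid families, which act on the GTPase Rho1 and on protein kinase C. A kinase cascade then ends at Slt2, which activates the transcription factors Rlm1 and Swi4-Swi6. Known outcomes in yeast include more chitin, more of the wall's mannoproteins and more of the enzymes that link chitin and glucan to one another.

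The 4 wild-type libraries held between 24634576 and 26035653 counts, within the range of 24147195 to 31677985 over all 8. The values given below are CPM, counts scaled to a common library size, which are not corrected for gene length, so levels are compared between libraries and not between genes. A count of 0 allowed up to 0.0947 to 0.1242 CPM in a library, as far as counting error goes. The dye-treated wild-type libraries differed from one another more than any other pair of replicates: their variance was 75.02 times that expected from counting, against 11.26 times in the untreated wild type and 27.93 and 29.41 times in the mub1 groups. On the first component of the 4 wild-type libraries, which held 62.6% of the variance, the dye-treated libraries lay at -10.24 and -19.07 and the untreated ones at 14.45 and 14.86. The second component, with 23.8%, set the dye-treated libraries apart from each other, at 14.35 and -10.56, with the untreated ones at -4.789 and 0.9944. The lists of genes this difference touched are given near the end.

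Calcofluor white raised more genes strongly than it lowered. In the quasi-likelihood test of edgeR, adjusted after Benjamini and Hochberg, 1134 of 5954 tested genes (19.0%) passed an adjusted p of 0.05, 616 higher (10.3%) and 518 lower (8.70%) with the dye. The shares of 10.3% higher and 8.70% lower are those to set beside each list count below. Most changes were small, with a median size of 0.45 on the log2 scale among the genes called and quartiles of 0.33 and 0.65. Of the 123 genes that changed at least 2-fold (2.07% of those tested), 107 were higher and 16 lower. With scaling by library totals, 716 genes were called higher and 321 lower, so the share of higher calls was 69% and not 54.3%. The count rested on single libraries: it was 269 without untreated replicate 1, 301 without untreated replicate 2, 1788 without dye-treated replicate 1, 1395 without dye-treated replicate 2, and 348 with the 4 wild-type libraries fitted alone. A core of 199 genes, 152 higher and 47 lower, was called in the full fit and without each wild-type library in turn, and a gene said below to keep its call is one of these. Libraries were always left out singly.

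**Figure D1:**
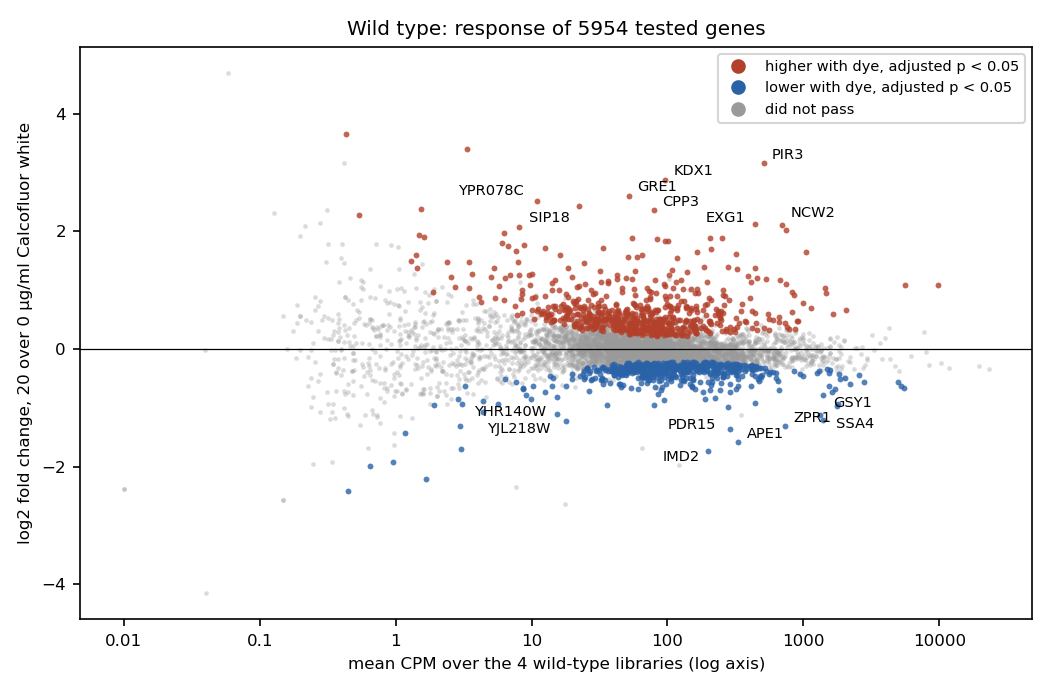
Log2 fold change of each of the 5954 tested genes in the wild type, 20 over 0 µg/ml Calcofluor white, against its mean CPM over the 4 wild-type libraries on a log axis. Red points are the 616 genes called higher, blue points the 518 called lower and grey points those that did not pass, and the 8 largest named changes in each direction carry their symbols.

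Genes of the cell wall stood among the 16 largest increases. PIR3 (YKL163W, chromosome XI, 144401 to 145378, plus strand, 1 coding exon), a wall protein with internal repeats that is bound to glucan, had 557 and 1275 CPM with the dye, against 109 and 95.9 CPM without it. Its level was 8.93 times as high with the dye (3.16 ± 0.35 on the log2 scale, ± SE, adjusted p = 0.00196 by edgeR's test), and the dye-treated libraries differed from each other by a factor of 2.287. KDX1 (YKL161C, chromosome XI, 149386 to 150687, minus strand), a kinase-like relative of Slt2 that is transcribed through Rlm1, had 137 and 200.1 CPM with the dye, against 22.8 and 23.02 CPM without it (2.88 ± 0.16, adjusted p = 5.27e-05 by edgeR's test). Both genes lay far above their untreated libraries in each dye-treated library, and PIR1, a further wall protein gene, lies beside them at 141794 to 142819 on the minus strand.

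EXG1 (YLR300W, chromosome XII, 728955 to 730301, plus strand), the main secreted exoglucanase, had 646 and 801 CPM with the dye, against 162 and 168 CPM without it, and its change of 2.13 ± 0.11 had a small error. CRH1 (YGR189C, chromosome VII, 876669 to 878192, minus strand), a transglycosylase that joins chitin to glucan, had 954 and 1419 CPM with the dye, against 304 and 279.7 CPM without it (2.02 ± 0.17). NCW2, a wall mannoprotein held by a lipid anchor (GPI), had 862 and 1396 CPM with the dye, against 270.1 and 253 CPM without it (2.11 ± 0.21). YPS3, a yapsin, one of the aspartyl proteases at the cell surface, had 337 and 452 CPM with the dye, against 114 and 100.5 CPM without it (1.88 ± 0.13). The groups of libraries were separate for each of these genes, and within the dye-treated group replicate 2 was the higher one each time.

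KTR2 (YKR061W, chromosome XI, 557677 to 558954, plus strand), a Golgi mannosyltransferase that builds the sugar chains of wall proteins, had 114 and 185 CPM with the dye, against 39.7 and 44.3 CPM without it (1.83 ± 0.19). CRG1 (YHR209W, chromosome VIII, 519437 to 520312, plus strand), a methyltransferase linked to cantharidin resistance and lipids, had 253 and 392 CPM with the dye, against 87.9 and 85.3 CPM without it (1.90 ± 0.18). GRE1 and SIP18, a related pair of small hydrophilic proteins known to be induced by osmotic stress and drying, changed by 2.61 ± 0.20 and 2.44 ± 0.30. GRE1 had 79.6 and 98.2 CPM with the dye, against 15.5 and 13.6 CPM without it, and SIP18 had 32.4 and 43.6 CPM with the dye, against 8.73 and 5.24 CPM without it.

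The other members of the 16 reached into metabolism or have no settled role. TKL2, a transketolase of the pentose phosphate pathway, changed by 1.89 ± 0.22, YPL088W, a predicted aryl-alcohol dehydrogenase, by 1.84 ± 0.15, CPP3 by 2.36 ± 0.23 and YPR078C by 2.51 ± 0.24. INO1, which makes inositol phosphate, had 109 and 155 CPM with the dye, against 40.6 and 31.4 CPM without it (1.88 ± 0.38). IDP2, the cytosolic isocitrate dehydrogenase that makes NADPH, had 28.5 and 73.9 CPM with the dye, against 16.1 and 15.02 CPM without it (1.72 ± 0.39), so 1 dye-treated library lay well above the other. All 16 had separate groups of libraries by the rule that chose them, where 58.8% of tested genes did, and 14 of them kept their calls. INO1 lost its call without any 1 of the 4 wild-type libraries, and IDP2 without either untreated replicate.

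**Figure D2:**
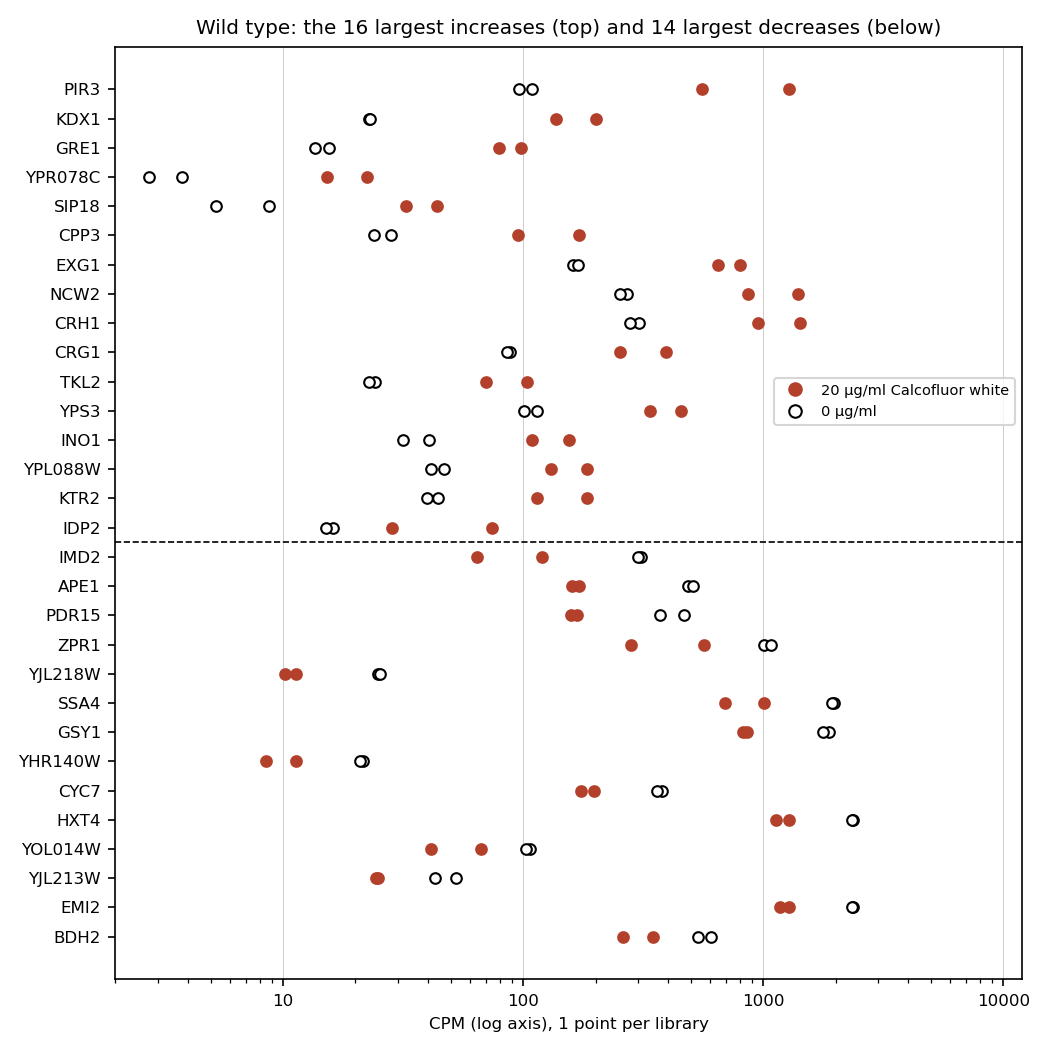
CPM on a log axis for the 16 genes with the largest increases (above the dashed line) and the 14 with the largest decreases (below it), 1 point per wild-type library. Filled red points are the libraries with 20 µg/ml Calcofluor white and open points those with 0 µg/ml, and PIR3, for example, had 557 and 1275 CPM with the dye and 109 and 95.9 CPM without it.

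Rlm1 is known to bind a palindromic core made of CTA, then 4 bases that are A or T, then TAG. A looser pattern, with any 4 bases allowed, was searched on both strands in the 600 bases before the start codon. It lay in front of 6 of the 16 genes (37.5%), against 617 of all 5714 windows (10.8%). The 6 were PIR3, CRG1, INO1, YPL088W, KTR2 and IDP2. The matches of INO1 (CTAATGTTAG) and IDP2 (CTAGGAATAG) hold G in the middle and so are not the A or T form. How many of all windows hold that form was not counted. Stretches of 120 bases around the match are shown for 3 of them to let the matches be compared: PIR3 and KTR2, which hold the same 10 letters at a similar distance, and CRG1, whose middle letters differ. The sequences are RefSeq's (build R64), read on the plus strand, on which all 3 genes lie, and capitals mark the match.
PIR3 (chrXI:144066-144185): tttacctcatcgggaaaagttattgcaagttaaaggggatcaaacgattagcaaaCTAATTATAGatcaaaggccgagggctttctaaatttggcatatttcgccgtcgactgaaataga
KTR2 (chrXI:557355-557474): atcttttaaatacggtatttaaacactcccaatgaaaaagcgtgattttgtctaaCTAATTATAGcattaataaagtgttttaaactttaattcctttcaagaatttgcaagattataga
CRG1 (chrVIII:519237-519356): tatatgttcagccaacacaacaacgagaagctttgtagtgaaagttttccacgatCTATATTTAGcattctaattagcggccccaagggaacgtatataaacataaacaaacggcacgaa
The match lay 280 to 271 bases before the start codon of PIR3, 267 to 258 before that of KTR2 and 145 to 136 before that of CRG1. Over whole groups, 97 of 609 windows of genes called higher held the pattern (15.9%), 22 of 102 of those at least 2-fold higher (21.6%), and 56 of 511 of those called lower. Within the Rlm1 target list described further on it stood before 6 of 25 genes (24%), and PST1 and CWP1 shared 1 form, CTAAAAATAG. A match is a run of letters in a window and was not tied to binding here. The core of the site that Swi4 binds in G1 promoters, CGCGAAA, was in 63 of 609 windows of genes called higher (10.3%), 22 of 511 of those called lower (4.31%), 379 of all (6.63%) and 1 of the 16 (6.25%). The letters GAGGCTG, part of the site of the calcineurin factor Crz1, were in 3 of the 16 (18.8%) and 2 of the 14 largest decreases (14.3%). They were in 9 of 102 windows of genes at least 2-fold higher (8.82%) and 30 of 609 of those called higher (4.93%). Of those called lower 16 of 511 held them (3.13%), and of all windows 218 (3.82%). The stress element AGGGG of Msn2 and Msn4 was in 9 of the 14 largest decreases (64.3%) and 6 of the 16 largest increases (37.5%). It was in 226 of 511 windows of genes called lower (44.2%) and 255 of 609 of those called higher (41.9%). Among those at least 2-fold higher 48 of 102 held it (47.1%). Of all windows 2284 held it (40.0%). A heat shock element, TTC, GAA and TTC each 2 bases apart, was in 0 of the 16 and in 97 of all (1.7%). This element was in 1 of the 14 largest decreases (7.14%), 15 of 511 called lower (2.94%) and 11 of 609 called higher (1.81%). Among those at least 2-fold higher 4 of 102 held it (3.92%).

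The membrane sensors and the regulators of Rho1 changed in part. Of 16 tested genes, 6 rose, none fell and 10 did not pass, with a list median of 0.21 on the log2 scale against -0.01 over all tested genes. The sensor genes MTL1 (0.91 ± 0.17), WSC2 (0.39 ± 0.08) and MID2 (0.38 ± 0.11) rose, and the sensor gene SLG1, also known as WSC1, had 198 and 219 CPM with the dye, against 198 and 194 CPM without it and did not pass (0.09 ± 0.07). BAG7, a GTPase-activating protein for Rho1, had 83.1 and 107 CPM with the dye, against 48.3 and 44.4 CPM without it (1.04 ± 0.12), and ZEO1, a membrane protein that binds Mid2, had 1779 and 2074 CPM with the dye, against 1014 and 970 CPM without it (0.96 ± 0.11). ROM2, the main exchange factor of Rho1, and RHO1 itself were at -0.02 ± 0.08 and 0.19 ± 0.08 and did not pass. BAG7 and ZEO1 kept their calls, and 3 members were called higher without untreated replicate 1 and 2 without untreated replicate 2. MID2 overlaps JIP3 on the chromosome, so its value is uncertain.

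In the kinase cascade the upper steps did not pass the test and the lower ones did. PKC1 (-0.15 ± 0.07), BCK1 (0.00 ± 0.08) and MKK1 (0.22 ± 0.08) did not pass, MKK2 rose by 0.28 ± 0.07, and SLT2 (YHR030C, chromosome VIII, 168890 to 170344, minus strand), the last kinase, had 493 and 611 CPM with the dye, against 248 and 218 CPM without it (1.24 ± 0.11, adjusted p = 0.000412 by edgeR's test). RLM1, the transcription factor below Slt2, had 175 and 223 CPM with the dye, against 129.6 and 118 CPM without it (0.69 ± 0.11), whereas SWI4 (0.20 ± 0.09) and SWI6 (0.07 ± 0.08) did not pass. Phosphatases that act on Slt2 moved in both directions. MSG5 had 50.95 and 73.8 CPM with the dye, against 30.7 and 30.4 CPM without it (1.03 ± 0.16) and PTP2 had 111 and 138 CPM with the dye, against 69.7 and 63.97 CPM without it (0.90 ± 0.10), while SDP1 was lower, with 37.4 and 35.1 CPM with the dye, against 49.6 and 51.6 CPM without it (-0.48 ± 0.09). In all, 7 of the 14 genes of this list rose, 1 fell and 6 did not pass, with a median of 0.25. KDX1, SLT2, MSG5 and PTP2 kept their calls, and without untreated replicate 2 the list had 4 genes higher and 0 lower.

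The targets of Rlm1, as listed from textbook knowledge, rose with few exceptions. Of 25 tested genes, 22 rose (88%, against 10.3% of all tested genes), 1 fell and 2 did not pass, and the median log2 fold change was 1.14. The list was written with results of this series known, so its direction is not independent evidence. PRM5, a membrane protein, had 427 and 537 CPM with the dye, against 158 and 157 CPM without it (1.61 ± 0.10), and its paralog YNL058C had 165 and 185 CPM with the dye, against 56.01 and 63.2 CPM without it (1.55 ± 0.10). PST1, a GPI-anchored wall protein, had 1217 and 1933 CPM with the dye, against 530.1 and 476 CPM without it (1.65 ± 0.19). The summed level of the list was 30050 and 41190 CPM with the dye, against 16850 and 16340 CPM without it, so the dye-treated libraries were apart from each other as well as from the untreated ones. CTT1, the cytosolic catalase, was the member that fell, with 496 and 573 CPM with the dye, against 817 and 734 CPM without it (-0.54 ± 0.14), and it lost its call without either untreated replicate. The count of higher calls lay between 18 and 24 under all alternatives run, and 18 members kept their calls.

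Chitin genes rose along much of the route from sugar to polymer. Of 19 tested genes of chitin synthesis, trafficking and degradation, 8 rose, 1 (BCH1, named after its value was seen) fell and 10 did not pass, with a median of 0.13. GFA1 (YKL104C, chromosome XI, 243220 to 245373, minus strand), the first enzyme of the precursor pathway, had 557 and 716 CPM with the dye, against 243 and 248 CPM without it (1.37 ± 0.12), and PCM1, a later enzyme of it, had 317 and 333 CPM with the dye, against 193 and 195 CPM without it (0.75 ± 0.08). CHS3 (YBR023C, chromosome II, 284428 to 287925, minus strand), the synthase of most wall chitin, had 148 and 172 CPM with the dye, against 70.7 and 73.5 CPM without it (1.15 ± 0.10). All 3 were separate between the groups in every library. Some proteins that bring Chs3 to the surface rose as well. CHS7, its chaperone in the endoplasmic reticulum, rose by 1.03 ± 0.12. CHS6, of the coat that carries it out of the Golgi, rose by 0.88 ± 0.12, and SKT5, its activator, by 0.60 ± 0.10. BCH1, a trafficking member of the list, went the other way (-0.24 ± 0.07). CHS1, a synthase that repairs the wall at cell separation, rose by 0.60 ± 0.10, and CHS2, which makes the septum, by 0.45 ± 0.09. CTS1, the chitinase of cell separation, was at -0.28 ± 0.12 and did not pass. SKT5 lost its call without untreated replicate 1, CHS1 without untreated replicate 2 and CHS2 without either, and GFA1 overlaps the small open reading frame YKL104W-A, which makes its value uncertain.

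Of 16 tested genes of beta-glucan synthesis, 6 rose, none fell and 10 did not pass (median 0.15). FKS1, the glucan synthase subunit of growing cells, had 990.2 and 1005 CPM with the dye, against 663 and 619.8 CPM without it (0.64 ± 0.10), and GSC2, its stress-induced counterpart, had 408 and 725 CPM with the dye, against 273 and 238 CPM without it (1.15 ± 0.22), with replicate 2 well above replicate 1 in the dye. KRE6 and KRE1, which act in the making of the branched beta-1,6 form, changed by 0.68 ± 0.08 and 0.88 ± 0.14. FKS1, KRE1 and KRE6 kept their calls. GSC2 did not, and the list had 3 higher calls without untreated replicate 1 and 3 without untreated replicate 2.

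Of 23 tested genes whose products link and remodel wall polymers, 13 rose (56.5%), none fell and 10 did not pass, with a median of 0.47. Besides EXG1 and CRH1, DFG5, which moves wall proteins from their lipid anchor to glucan, had 232 and 303 CPM with the dye, against 131 and 112 CPM without it (1.14 ± 0.13). GAS2, a glucan-elongating enzyme best known from spores, had 33.02 and 34.4 CPM with the dye, against 16.1 and 15.4 CPM without it (1.10 ± 0.11), and EXG2, a further exoglucanase, had 198 and 221 CPM with the dye, against 109.8 and 107 CPM without it (0.95 ± 0.12). SIM1, of the SUN family, changed by 0.60 ± 0.08, and DSE4, a glucanase made in daughter cells, by 0.67 ± 0.09. These 5 genes kept their calls, and the list had 8 higher calls without untreated replicate 1 and 8 without untreated replicate 2.

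The wall's structural proteins belong to a few families. Of the 5 tested PIR genes, whose products are bound to glucan through internal repeats, 4 rose and PIR5 was at 0.60 ± 0.23 and did not pass. HSP150 had 6488 and 8769 CPM with the dye, against 3655 and 3489 CPM without it (1.09 ± 0.15), CIS3 had 958 and 1227 CPM with the dye, against 533 and 584 CPM without it (0.97 ± 0.13) and PIR1 had 1045 and 1489 CPM with the dye, against 734 and 734 CPM without it (0.79 ± 0.16). These were smaller steps than that of PIR3, and PIR1 lost its call without either untreated replicate.

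Of 21 tested GPI-anchored wall proteins, 6 rose (28.6%, against 10.3% of all tested genes), 1 fell and 14 did not pass (median 0.29). SED1, an abundant structural protein, had 11420 and 15430 CPM with the dye, against 6325 and 6229 CPM without it (1.10 ± 0.16). CWP1 changed by 1.21 ± 0.17, CCW14 by 0.92 ± 0.14 and ECM33 by 0.45 ± 0.09. SPI1, a wall protein known from stationary cells and weak acid stress, was lower, with 1179 and 1436 CPM with the dye, against 2220 and 1983 CPM without it (-0.68 ± 0.14), a call lost without either untreated replicate. Without dye-treated replicate 1 the list had 10 higher calls. FLO1 and FLO9 were not analysed here.

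Of the yapsins 60% were called higher, against 10.3% of all tested genes, while mannosylation gave few calls beside KTR2. Of 5 tested yapsins, YPS3, YPS6 (0.61 ± 0.12) and YPS7 (0.39 ± 0.07) rose and 2 did not pass, and 1 was called without untreated replicate 2. Of 29 genes of protein mannosylation and mannan synthesis, 4 rose (13.8%), which is near the 10.3% of all tested genes. PMT7 fell (-0.27 ± 0.07) and 24 did not pass, with a median of 0.06. KTR6, which adds mannosyl phosphate, had 189 and 215 CPM with the dye, against 126 and 118 CPM without it (0.73 ± 0.09), and ANP1 (0.51 ± 0.09) and MNN11 (0.42 ± 0.10) are subunits of mannan polymerase complexes. The 4 higher calls became 9 without dye-treated replicate 2 and 2 without untreated replicate 1.

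**Figure D3:**
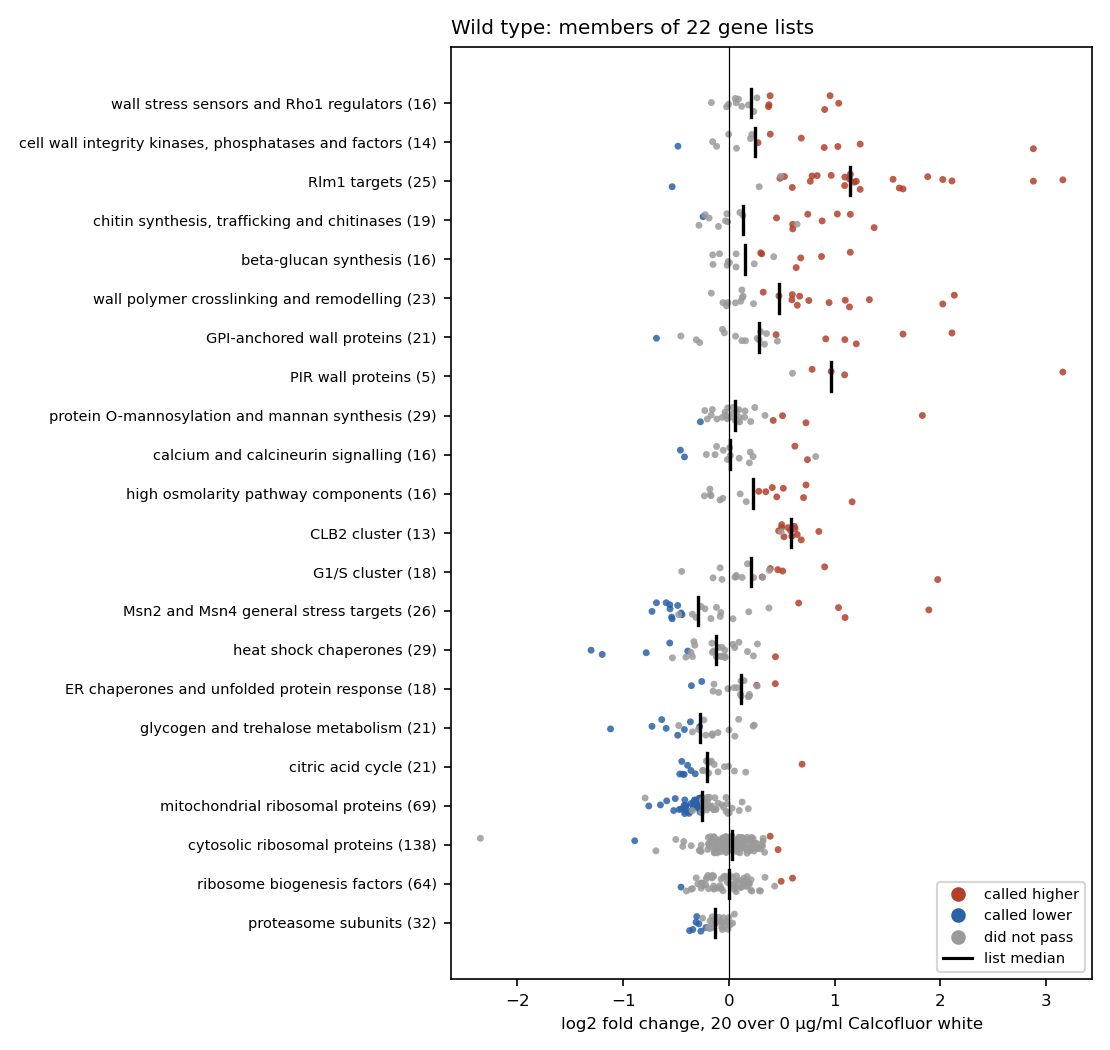
Log2 fold change of each tested member of 22 gene lists in the wild type, 20 over 0 µg/ml Calcofluor white, with the number of members in brackets and the list median as a black bar. Red points were called higher, blue ones lower and grey ones did not pass, and the Rlm1 targets (median 1.14) and the CLB2 cluster (median 0.58) lie mostly to the right while mitochondrial ribosomal proteins (median -0.26) lie to the left.

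Other signalling routes that wall stress is known to touch gave mixed values. Of 16 calcium and calcineurin genes 2 rose (12.5%, against 10.3% of all tested genes) and 2 fell. ECM7, linked to calcium influx, was at 0.74 ± 0.10 and CCH1, a calcium channel subunit, at 0.62 ± 0.10, a call lost without untreated replicate 1, and the calmodulin-dependent kinases CMK1 (-0.46 ± 0.09) and CMK2 (-0.42 ± 0.12) fell. CRZ1, the transcription factor of calcineurin, and RCN1, its target gene, were at -0.12 ± 0.08 and -0.01 ± 0.08 and did not pass. The list had 4 higher calls without dye-treated replicate 1 and 1 without untreated replicate 1, and 0 lower calls without either untreated replicate.

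Components of the high osmolarity pathway were called higher in 8 of 16 cases (50%, against 10.3% of all tested genes), with none lower and a median of 0.22. SMP1, a transcription factor below the kinase Hog1, had 46 and 54.8 CPM with the dye, against 21.4 and 23.5 CPM without it (1.17 ± 0.13), SSK22, a kinase of the cascade, had 81.8 and 95.9 CPM with the dye, against 57.6 and 49.5 CPM without it (0.73 ± 0.12), and MSB2, a mucin-like sensor, had 71.99 and 98.3 CPM with the dye, against 51.3 and 53.1 CPM without it (0.71 ± 0.14). Of 14 target genes of osmotic stress, GRE1 and SIP18 rose, GPD1, which makes glycerol phosphate, fell (-0.33 ± 0.08), and 11 did not pass. SMP1 and YPD1 kept their calls, and the components had 3 higher calls without untreated replicate 1, 2 without untreated replicate 2 and 5 with the replicate number as a block.

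The decreases were smaller than the increases. APE1 (YKL103C, chromosome XI, 246138 to 247682, minus strand), a vacuolar aminopeptidase, had 171 and 160.2 CPM with the dye, against 485 and 507 CPM without it (-1.58 ± 0.10, adjusted p = 6.04e-05 by edgeR's test). PDR15, a multidrug exporter of the plasma membrane, had 158 and 167 CPM with the dye, against 466 and 373 CPM without it (-1.37 ± 0.10), and GSY1, a glycogen synthase, had 826 and 855 CPM with the dye, against 1872 and 1778 CPM without it (-1.12 ± 0.10). In these 3 both dye-treated libraries lay far below both untreated ones.

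IMD2, of guanine nucleotide synthesis, had the lowest fold change of the 14, with 120.2 and 64.3 CPM with the dye, against 310.5 and 302 CPM without it (-1.73 ± 0.30). SSA4, a heat-induced Hsp70 chaperone, had 1003 and 695 CPM with the dye, against 1966 and 1929 CPM without it (-1.20 ± 0.22). ZPR1, which helps elongation factor 1A to fold, had 564 and 281 CPM with the dye, against 1004 and 1081 CPM without it (-1.30 ± 0.29). In each of these 3 genes replicate 2 of the dye-treated libraries was the lower one.

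HXT4, a hexose transporter, had 1132 and 1283 CPM with the dye, against 2367 and 2344 CPM without it (-0.96 ± 0.13), EMI2, a relative of the hexokinases, had 1170 and 1281 CPM with the dye, against 2363 and 2341 CPM without it (-0.94 ± 0.11), and CYC7, the lesser cytochrome c, had 174 and 196 CPM with the dye, against 378 and 359 CPM without it (-0.99 ± 0.13). BDH2, a butanediol dehydrogenase relative, changed by -0.91 ± 0.13. Among genes with no settled role, YJL218W changed by -1.22 ± 0.12, YHR140W by -1.10 ± 0.15, YOL014W by -0.95 ± 0.17 and YJL213W by -0.95 ± 0.11. Of the 14 largest decreases 10 kept their calls. IMD2 lost its call without dye-treated replicate 2, ZPR1 without either untreated replicate, SSA4 without dye-treated replicate 2 or either untreated replicate, and YOL014W without untreated replicate 1.

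General stress genes did not rise as a group. Of 26 tested targets of Msn2 and Msn4, the general stress factors, 4 rose, 10 fell (38.5%, against 8.70% of all tested genes) and 12 did not pass, with a median of -0.29. MSN2 (0.05 ± 0.08) and MSN4 (-0.06 ± 0.09) did not pass. PGM2, phosphoglucomutase, had 1140 and 1288 CPM with the dye, against 2016 and 2001 CPM without it (-0.73 ± 0.11), and HSP12, a membrane-protecting protein, went the other way with 1360 and 2521 CPM with the dye, against 1009 and 882 CPM without it (1.04 ± 0.24), as did TKL2. Glycogen and trehalose genes, which overlap this list, had 0 higher and 8 lower of 21 (median -0.28), among them GSY1, GSY2 (-0.59 ± 0.10) and UGP1 (-0.64 ± 0.10). These counts rested on single libraries: the lower calls among Msn2 and Msn4 targets were 16 without dye-treated replicate 2, 1 without untreated replicate 1 and 2 without untreated replicate 2, and the higher calls were 7 without dye-treated replicate 1 and 1 without either untreated replicate. The lower calls in the glycogen list were 15 without dye-treated replicate 2, and 3 and 4 without untreated replicates 1 and 2.

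Heat shock, secretory and redox lists held calls in both directions, against 10.3% higher and 8.70% lower of all tested genes. Of 29 heat shock chaperones, CUR1 rose (0.44 ± 0.07), 5 fell (17.2%) and 23 did not pass. BTN2 (-0.78 ± 0.20), HSP42 (-0.56 ± 0.14) and MDJ1 (-0.39 ± 0.08) fell with SSA4 and ZPR1, and HSF1, the heat shock factor, was at -0.18 ± 0.10 and did not pass. HAC1, the factor of the unfolded protein response, rose by 0.44 ± 0.09, which the level of its RNA alone does not tie to splicing, and of 18 genes of that list 2 rose and 2 fell (11.1% each). Without either untreated replicate HAC1 lost its call and that list had 0 higher and 0 lower calls. Of 17 Yap1 and antioxidant genes GTT2 rose (0.52 ± 0.13) and 4 fell (23.5%), with SOD1 at -0.34 ± 0.10 and SOD2 at -0.37 ± 0.10. Of 20 drug resistance genes, RTA1 (0.9966 ± 0.12) and TPO1 (0.47 ± 0.14) rose (10%) and 4 fell (20%), including PDR5 (-0.45 ± 0.12). RTA1 kept its call. PDR5 lost its call without any 1 of the 4 wild-type libraries, and TPO1 without dye-treated replicate 1 or either untreated replicate. Without untreated replicate 1 or 2 the heat shock and antioxidant lists had 0 lower calls, as the antioxidant list did with library totals, and without dye-treated replicate 1 the heat shock list had 10.

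Mitochondrial ribosomal proteins shifted down together by small steps. Of 69 tested genes none rose, 36 fell (52.2%) and 33 did not pass, with a median of -0.26 and 5 of 69 above 0. Their summed level was 4687 and 4673 CPM with the dye, against 5664 and 5653 CPM without it, so the replicates agreed closely in both media. MRPL8 had 66.4 and 59.8 CPM with the dye, against 105 and 108 CPM without it (-0.76 ± 0.08) and MRPL13 had 73.6 and 69.2 CPM with the dye, against 114 and 110 CPM without it (-0.65 ± 0.07). The number called was 6 without untreated replicate 1, 9 without untreated replicate 2 and 10 with the 4 libraries alone, and 5 members kept their calls.

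Citric acid cycle genes were called lower in 7 of 21 cases (33.3%, against 8.70% of all tested genes), with CIT3 higher (0.69 ± 0.14) and a median of -0.20. ACO1, aconitase, had 379 and 359 CPM with the dye, against 502 and 516 CPM without it (-0.46 ± 0.11) and IDH1, of isocitrate dehydrogenase, had 282 and 262 CPM with the dye, against 360.2 and 376 CPM without it (-0.44 ± 0.08). The 7 lower calls became 0 without either untreated replicate, 13 without dye-treated replicate 2, and 4 with library totals or with the replicate number as a block. Of 32 proteasome subunits 7 fell (21.9%), with PRE3 at -0.37 ± 0.07, none rose and 25 did not pass (median -0.13). The 7 lower calls became 0 without either untreated replicate, 4 with library totals and 3 with the replicate number as a block, and RPN4, the factor of these genes, was at 0.34 ± 0.11 and did not pass.

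Genes of mitosis rose. Of 13 tested genes of the CLB2 cluster, a set transcribed in G2 and M phase, 12 rose (92.3%), none fell and 1 did not pass, with a median of 0.58 and a narrow range of 0.47 to 0.85. IQG1, a scaffold of the contractile ring, had 92.5 and 97.96 CPM with the dye, against 51.5 and 54.1 CPM without it (0.85 ± 0.08), SWI5, a transcription factor of late mitosis, had 90.5 and 80.99 CPM with the dye, against 50.9 and 58.8 CPM without it (0.65 ± 0.09), and MYO1, the myosin of the ring, had 81.3 and 72.98 CPM with the dye, against 49.9 and 52.97 CPM without it (0.58 ± 0.09). The member that did not pass was CLB2 itself, the mitotic cyclin (named after its value was seen), with 26.7 and 21.6 CPM with the dye, against 16.7 and 17.6 CPM without it (0.49 ± 0.15, adjusted p = 0.052 by edgeR's test). In a whole culture, more cells in a phase and more RNA per cell cannot be told apart. The 12 calls were 5 without untreated replicate 1 and 7 with the 4 libraries alone, and IQG1, SWI5, MYO1 and BUD3 kept theirs.

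Among 18 genes of the G1/S cluster 6 rose and none fell (median 0.20). GIC2, an effector of Cdc42, had 156 and 149.9 CPM with the dye, against 78.5 and 84.5 CPM without it (0.91 ± 0.09), CLN2, a G1 cyclin, had 107 and 99.3 CPM with the dye, against 73.2 and 71.8 CPM without it (0.51 ± 0.07), and PCL1, a further cyclin, had 5.27 and 14.9 CPM with the dye, against 2.77 and 2.35 CPM without it (1.98 ± 0.42), with 1 dye-treated library far above the other. CLN3 rose by 0.46 ± 0.09. GIC2 and CLN2 kept their calls, and 2 of the 6 were called without untreated replicate 1 and 2 without untreated replicate 2. Among the core histone genes HHF1 (0.61 ± 0.10), HHT1 (0.46 ± 0.11), HTA1 (0.45 ± 0.11) and HTB1 (0.49 ± 0.11) rose, and HHF2, HHT2, HTA2 and HTB2 (named after their values were seen) did not pass. HHF1 and HHF2 are near-identical in sequence, which makes their values uncertain, and none of the 4 calls held without untreated replicate 1.

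ASH1, which represses mating-type switching in daughter cells, had 308 and 374 CPM with the dye, against 164 and 177 CPM without it (1.002 ± 0.12). FAR1, which arrests G1 in pheromone, had 54.6 and 63.4 CPM with the dye, against 21.5 and 30.3 CPM without it (1.19 ± 0.17). Of the 16 genes of pheromone response, FAR1 and MSG5 rose, 4 fell and 10 did not pass, and the 4 were FIG1 (-1.69 ± 0.40), FUS2 (-0.68 ± 0.18), AGA1 (-0.64 ± 0.18) and FUS1 (-0.53 ± 0.12). None of these 4 was called without untreated replicate 2, and 2 were without dye-treated replicate 2.

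Markers of the cell types a culture could hold were checked beside these. The 7 a-cell markers summed to 1484 and 1101 CPM with the dye, against 1453 and 1719 CPM without it, and MFA1 (-0.73 ± 0.18) and AGA2 (-0.61 ± 0.17) were called lower. The 4 alpha-cell markers summed to 68.1 and 71.3 CPM with the dye, against 61.6 and 64.1 CPM without it, and the pheromone gene MF(ALPHA)1 (named after its value was seen) had 1.179 and 1.031 CPM with the dye, against 0.5457 and 0.7307 CPM without it. The 14 markers of meiosis and sporulation summed to 206 and 233 CPM with the dye, against 204 and 199.8 CPM without it, with SPO11 (0.63 ± 0.15) and REC8 (0.60 ± 0.17) called higher. Both calls were lost without either untreated replicate, and the a-cell list had 4 lower calls without dye-treated replicate 1, 1 without dye-treated replicate 2, 1 without untreated replicate 1 and 0 without untreated replicate 2. No marker was at 0 in any wild-type library, and the part of these cell types in the results was not tested.

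Among nutrient genes, parts of the phosphate and sulfur lists rose. In the phosphate regulon (15 genes) 4 rose (26.7%, against 10.3% of all tested genes), none fell and 11 did not pass. PHO5, the secreted acid phosphatase, had 472 and 334 CPM with the dye, against 164 and 142 CPM without it (1.40 ± 0.17), PHO84, the main phosphate transporter, had 149 and 141 CPM with the dye, against 90.1 and 89.3 CPM without it (0.70 ± 0.08), and PHO89, a sodium-coupled transporter, had 21.4 and 31.9 CPM with the dye, against 10.9 and 9.66 CPM without it (1.37 ± 0.23). PHO5 was higher in replicate 1 of the dye-treated libraries, unlike PIR3, KDX1 and EXG1. The 4 calls were 2 without untreated replicate 2, and 4 members were called lower without dye-treated replicate 1.

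In sulfur and methionine metabolism 6 of 20 rose (30%, against 10.3% of all tested genes) and none fell (median 0.21). MUP1, the high-affinity methionine permease, had 155 and 182 CPM with the dye, against 95.8 and 95.9 CPM without it (0.81 ± 0.12), and STR3, which turns cystathionine towards methionine, had 32.99 and 35.5 CPM with the dye, against 19.6 and 20.9 CPM without it (0.75 ± 0.12). Both kept their calls, and the 6 were 10 without dye-treated replicate 1, and 3 and 2 without untreated replicates 1 and 2. PUT4, the proline permease, had 8.77 and 17.2 CPM with the dye, against 2.69 and 3.49 CPM without it (2.07 ± 0.31), while 20 of the 26 genes under nitrogen repression did not pass.

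In lipid synthesis ERG11, the lanosterol demethylase that azole drugs block, had 444 and 398 CPM with the dye, against 256 and 282 CPM without it (0.65 ± 0.09), and ITR1, the inositol transporter, rose by 0.69 ± 0.15 beside INO1. YPK2, a kinase below the plasma membrane sensor complex TORC2, had 857 and 1191 CPM with the dye, against 494 and 460.1 CPM without it (1.10 ± 0.14). HXT5, a transporter of slowly growing cells, had 142 and 256 CPM with the dye, against 85.6 and 75.2 CPM without it (1.31 ± 0.30), and HMX1, heme oxygenase, had 52.6 and 101 CPM with the dye, against 29.6 and 22.3 CPM without it (1.56 ± 0.29). ERG11 and YPK2 kept their calls. HMX1 lost its call without untreated replicate 2, and HXT5 without dye-treated replicate 2, without either untreated replicate and with the replicate number as a block.

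Several large lists moved in opposite directions in the dye-treated libraries and gave almost no calls. Each of these libraries was set against the mean of both untreated ones. For ribosome biogenesis factors (64 genes) the median was 0.19 in replicate 1 and -0.25 in replicate 2, with replicate 2 below replicate 1 in all 64, and 2 genes rose and 1 fell in the test. For cytosolic ribosomal proteins (138 genes) it was 0.18 and -0.15, with replicate 2 above in 4, and 2 rose and 1 fell. Respiratory chain and ATP synthase genes (31) went the other way, at -0.20 and 0.12, with replicate 2 above in all 31, and 2 fell. Rlm1 targets were at 0.92 and 1.30, again with replicate 2 above in all 25, so both libraries showed the increase and replicate 2 the larger one.

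The test counts of the growth lists followed the library left out. Without dye-treated replicate 1, 36 cytosolic ribosomal proteins and 30 ribosome biogenesis factors were called lower, and without dye-treated replicate 2, 47 and 20 were called higher, so no direction is given for either list. Mitochondrial ribosomal proteins stood at -0.25 and -0.26 in these libraries and the CLB2 cluster at 0.66 and 0.49, so both libraries had the same sign there. Single genes also differed between these libraries. ZRT1, the high-affinity zinc transporter (chromosome VII, 20978 to 22108, plus strand), had 368 and 67.1 CPM with the dye, against 462 and 484 CPM without it, and ZPS1, a wall protein made when zinc is scarce, had 82.8 and 16.5 CPM with the dye, against 257 and 134 CPM without it. Neither passed (-1.12 ± 0.83 and -1.98 ± 1.02), and what set the dye-treated libraries apart was not tested.

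**Figure D4:**
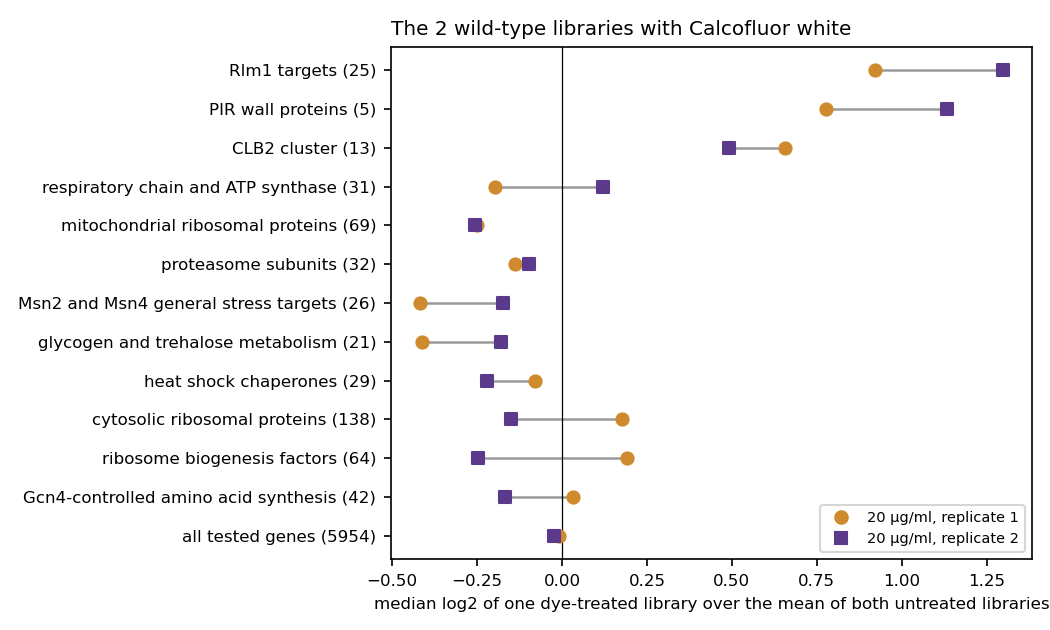
Median log2 ratio of each dye-treated wild-type library to the mean of both untreated ones, for 12 gene lists and for all 5954 tested genes, with the number of genes in brackets. Circles are replicate 1 and squares replicate 2 of the libraries with 20 µg/ml, and ribosome biogenesis factors, for example, lie at 0.19 and -0.25.

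The wild-type response was set against that of the mub1 deletion libraries by a test of the difference itself. The genotypes differ in marker genes too, as given below, so a difference cannot be tied to the deletion. For 25 wall and signalling genes, chosen with their increase in the wild type known, the difference passed the test for 10, and since the choice favours a larger wild-type value no direction is read from their number. By list, a difference was called for 8 of 25 Rlm1 targets, 6 of 23 linking and remodelling genes, 3 of 14 cascade genes and 3 of 19 chitin genes. It was called for 2 of 21 GPI-anchored proteins and 1 of 5 yapsins, against 2.50% of all tested genes. No difference was called among 16 sensors and Rho1 regulators, 16 beta-glucan genes, 5 PIR genes or 29 mannosylation genes. At the share over all genes, few or none are called in lists so short. The lists overlap and were written with results of this series known. Among genes that did not pass in the wild type, PIR5 had a log2 fold change of 0.60 ± 0.23 there and 0.62 ± 0.24 in mub1, and the yapsin gene MKC7 one of 0.41 ± 0.14 in the wild type and 0.47 ± 0.14 in mub1. KDX1 had 137 and 200.1 CPM with the dye, against 22.8 and 23.02 CPM without it in the wild type, while in mub1 it had 44.2 and 42.3 CPM with the dye, against 37.9 and 34.4 CPM without it (2.88 ± 0.16 in the wild type and 0.26 ± 0.15 in mub1, difference 2.62 ± 0.22, adjusted p = 0.000622 by edgeR's interaction test). EXG1 changed by 2.13 ± 0.11 in the wild type and 0.56 ± 0.10 in mub1 (difference 1.57 ± 0.15). These differences were called without each of the 8 libraries in turn.

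GFA1 changed by 1.37 ± 0.12 in the wild type, against 0.04 ± 0.12 in mub1, and CWP1, a GPI-anchored wall protein, by 1.21 ± 0.17, against -0.63 ± 0.16. SLT2 changed by 1.24 ± 0.11, against 0.42 ± 0.11 in mub1, CHS3 by 1.15 ± 0.10, against 0.34 ± 0.10, CRH1 by 2.02 ± 0.17, against 0.73 ± 0.16, PTP2 by 0.90 ± 0.10, against -0.01 ± 0.10, and DFG5 by 1.14 ± 0.13, against 0.28 ± 0.13. The difference passed for each of these 7, but none held without each of the 8 libraries. For PIR3 it was 2.21 ± 0.46 and did not pass (adjusted p = 0.057 by edgeR's interaction test). FKS1 (0.05 ± 0.13), CHS1 (-0.16 ± 0.14) and CHS2 (0.02 ± 0.13) had differences near 0 that did not pass, which does not show that they responded alike. In the Rlm1 list the median log2 fold change was 1.14 in the wild type and 0.28 in mub1.

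**Figure D5:**
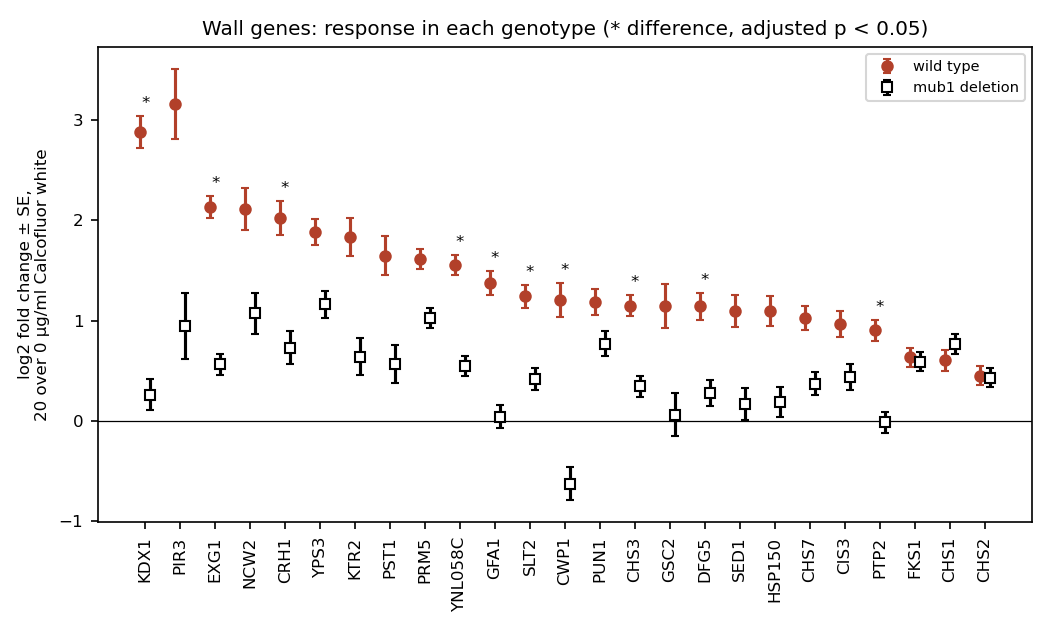
Log2 fold change, 20 over 0 µg/ml Calcofluor white, of 25 wall and signalling genes in the wild type (filled circles) and in mub1 deletion cells (open squares), with bars of 1 SE from the fit to all 8 libraries. A star marks the 10 genes whose difference between genotypes passed an adjusted p of 0.05, among them KDX1 with 2.88 ± 0.16 and 0.26 ± 0.15.

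Over all tested genes the difference passed for 149 (2.50%), 96 with a higher log2 fold change in the wild type than in mub1 and 53 with a lower one, whichever change was the larger in size. Of the 1134 genes called in the wild type, 517 were called in the same direction in mub1, which is 45.6% of the wild-type calls and 31.3% of the 1652 mub1 calls (27.7% of tested genes), and 24 (2.12%) were called in opposite directions. The count of 149 was 1779 without dye-treated wild-type replicate 1, 366 without dye-treated wild-type replicate 2, 10 and 9 without untreated wild-type replicates 1 and 2, 30 and 11 without dye-treated mub1 replicates 1 and 2, and 16 and 49 without untreated mub1 replicates 1 and 2. The genotypes also differ in marker genes. TRP1 had 35.7 and 38.7 CPM with the dye and 38.5 and 37.95 CPM without it in the wild type and 0 in all 4 mub1 libraries, and LEU2 had 190 and 223 CPM with the dye, against 204 and 244 CPM without it in mub1 and no more than 0.0786 CPM in the wild type, under the level that a count of 0 allows. URA3 and MET17 differed in the same direction as LEU2. All 4 were named after their values were seen. The deletion, these markers and any other difference between the strains cannot be told apart in this difference. By these markers the genotypes differ in more than MUB1, and the rest of their strain background was not tested.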

How the data were processed

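RNA was measured in 8 libraries, 2 in each of 4 groups, from stranded poly(A)-selected paired-end sequencing, per the labels' protocols. The authors deposited raw read counts per gene. Per the submitters' processing notes, FastQC 0.12.1, HISAT2 2.2.1 and featureCounts 2.0.3 were used with build R64. The strand setting, the annotation release and the handling of reads that fit several genes are not given in the sources used here, so genes that overlap, or that share at least 95% identity over 50% of their length with another (BLAST 2.17.0), are called uncertain.

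Of 6534 gene identifiers, 5864 matched RefSeq R64, and the 670 others, which keep the identifier of the file, held 0.16% to 0.229% of the counts. Genes were filtered with filterByExpr, which left 5954 and 99.997% of counts. Library sizes were scaled by TMM (factors of 0.9793 to 1.024) and tested with edgeR 4.0.16 in R 4.3.3 (glmQLFit, glmQLFTest). A single fit held the 8 libraries, with 1 mean for each group and 4 residual degrees of freedom, and Benjamini-Hochberg adjustment ran over all tested genes with a threshold of 0.05. The difference between genotypes was the interaction contrast of that fit. Scripts were tested on simulated data. Tables and figures used Python 3.11.15, pandas 2.3.3 and matplotlib 3.10.9.

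Named genes were the 16 largest increases and 14 largest decreases among called genes that averaged 10 CPM or more in the 4 wild-type libraries and no overlap between groups. To these came up to 6 members of each gene list by smallest p, a set of wall and stress regulators, the 6 largest differences between genotypes in each direction and the 5 largest replicate ratios per wild-type group. The gene lists were written from textbook knowledge, and members and lists were chosen with earlier results of these data known. Alternatives were other scalings, no filter, the replicate number as a block, DESeq2 1.42.0, a non-robust dispersion, the 4 wild-type libraries alone and each library left out. Same-numbered libraries were not paired by the labels. Totals of 24147195 to 31677985 counts per library set the precision, and a floor of 3 counts stands for a count of 0. Results on 1 of the gene lists are not reported here.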

Additional observations from a re-analysis of the deposited data

Results flagged for a closer look

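The test of the difference between genotypes passed for 41 of the named genes, and their values are given here as the wild-type minus the mub1 log2 fold change under Calcofluor white, from edgeR's interaction test at an adjusted p of 0.05. The log2 fold change was higher in the wild type than in mub1 for 27 of them and lower for 14, which says nothing of which change was the larger in size: APE1, for example, changed by -1.58 ± 0.10 in the wild type and -0.63 ± 0.10 in mub1.

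Genes of biotin synthesis had opposite signs in the genotypes. BIO4 and BIO3, enzymes of biotin synthesis, differed by 3.10 and 3.06. BIO4 changed by 0.73 ± 0.13 in the wild type and -2.37 ± 0.12 in mub1, and BIO3 by 0.73 ± 0.17 in the wild type and -2.33 ± 0.16 in mub1. Both passed in the wild type, but neither kept its wild-type call, and BIO3 did not pass with the 4 wild-type libraries alone. VHT1, the biotin transporter, differed by 2.65, with a wild-type change of 0.22 ± 0.09 that did not pass and -2.43 ± 0.08 in mub1. BIO4 had 18.2 and 22.7 CPM with the dye, against 12.2 and 12.5 CPM without it in the wild type and 22.03 and 21.8 CPM with the dye, against 104 and 122 CPM without it in mub1. YOR387C differed by 4.93, with 6.92 and 6.42 CPM with the dye, against 5.11 and 5.07 CPM without it in the wild type and 8.72 and 9.2 CPM with the dye, against 251 and 166 CPM without it in mub1. CHA1, the serine and threonine deaminase, differed by -2.43, with 192 and 185 CPM with the dye, against 166 and 152 CPM without it in the wild type and 34.9 and 36.1 CPM with the dye, against 6.27 and 4.83 CPM without it in mub1. In these 5 genes the groups of mub1 libraries lay apart, and the difference kept its call without each of the 8 libraries, as it did for KDX1 (2.62) and EXG1 (1.57).

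Among wall and signalling genes the difference was 1.83 for CWP1, 1.33 for GFA1, 1.29 for CRH1, 1.005 for YNL058C, 0.958 for YPS6, 0.917 for PTP2, 0.862 for DFG5, 0.824 for SLT2, 0.805 for CHS3, 0.709 for DSE4, 0.696 for SIM1 and 0.652 for PCM1. Of other genes with a difference above 0, it was 2.58 for PUT4, 1.77 for YPL088W, 1.75 for YPR078C, 1.63 for CRG1, 1.36 for ASH1, 1.202 for PHO5, 0.707 for CLN3, 0.629 for PHO84 and 0.622 for HHF1. Below 0 it was -0.557 for CRZ1, -0.732 for ATG41, -0.827 for PDR5, -0.872 for CMK2, -0.901 for YJL218W, -0.959 for APE1, -0.969 for ILV2, -1.02 for YJL213W, -1.06 for PDR12, -1.12 for CTT1, -1.14 for RMA1, -1.21 for ADH1 and -1.86 for THI4. Each of these 34 differences lost its call without at least 1 of the 8 libraries, 30 of them without 4 or more, and none changed sign when a library was left out.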

How the results depend on the processing

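Other scalings, no filter, a non-robust dispersion and DESeq2 gave 1037 to 1311 called wild-type genes, against 1134. Library totals gave 321 lower calls. The 4 wild-type libraries alone, with 2 residual degrees of freedom, gave 348 calls, 257 higher and 91 lower. With each wild-type library left out, the calls ran from 269 (without untreated replicate 1) to 1788 (without dye-treated replicate 1), higher calls from 199 to 903, lower calls from 70 to 885, and changes of at least 2-fold from 82 to 186. The lone sample then left in a group is assumed to vary like the other groups. Of the 275 gene results that passed the test, 0 changed sign under these alternatives, and of the 108 that did not pass 18 did. Results that passed on these same data could hardly change sign, and the largest changes were chosen for groups that did not overlap. The 0 was thus largely fixed beforehand and is no measure of stability.

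Calls of a difference between genotypes, 149 in all, became 92 with the replicate number as a block and 561 with DESeq2, and ran from 9 (without untreated wild-type replicate 2) to 1779 (without dye-treated wild-type replicate 1).

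The replicate number as a block gave 866 wild-type calls, 506 higher and 360 lower. The labels give only a shared number, and deviations of same-numbered libraries correlated at -0.12 between the wild-type groups. The crossed pairing, chosen after seeing the data, gave 1284 calls. Depth limits genes near the floor of 0.0947 to 0.1242 CPM.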

Other observations

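Of 24 genes of glycolysis and ethanol formation, 1 rose and 6 fell (25%, against 8.70% of all tested genes), with a median log2 fold change of -0.28, 4 members above 0 and separate groups of libraries for 22. Their summed level was 115800 and 107600 CPM with the dye, against 135300 and 138700 CPM without it. PYK2, the minor pyruvate kinase, fell by 0.73 and kept its call, and PDC5, a pyruvate decarboxylase, was the member that rose (0.65 ± 0.15). The 6 lower calls were 1 without untreated replicate 1 and 1 without untreated replicate 2. In the vacuolar and autophagy list of 25 genes, 2 rose and 5 fell, with ATG8, which coats autophagosomes, at 0.74 ± 0.17 and APE1 the lowest member. Of 42 genes of amino acid synthesis under Gcn4, 3 rose and 4 fell, and without dye-treated replicate 1 there were 14 lower calls.

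Lipid lists held calls in both directions, against 10.3% higher and 8.70% lower of all tested genes. Of 25 ergosterol genes 3 rose and 4 fell (12% and 16%), of 22 genes of sphingolipids and TORC2 signalling 1 rose and 3 fell, and of 17 genes of inositol and phospholipid synthesis 4 rose and 1 fell. Without either untreated replicate the ergosterol list had 1 higher and 0 lower calls and the inositol list 0 of either, and the lower calls among sphingolipid genes were 1 without untreated replicate 1 and 0 without untreated replicate 2. Of 21 genes of the iron regulon 2 rose and 4 fell, and ENB1 (-0.59 ± 0.08) kept its call. FET3, the multicopper oxidase of iron uptake, was at -0.67 ± 0.20. Its call was lost without any 1 of the 4 wild-type libraries and with those 4 fitted alone. The same held with library totals, with no filter and with the replicate number as a block. Of 18 hexose transporters and sensors 1 rose and 2 fell. Of 19 purine genes 1 rose, ADE4 (0.73 ± 0.13), and IMD2 fell, and of 10 pyrimidine genes none rose and 1 fell. Of 20 subunits and factors of RNA polymerases I and III, 3 rose, among them RRN3, an initiation factor of polymerase I (0.74 ± 0.11), and of 20 polarity and septin genes 2 rose.

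Neighbouring genes on 1 strand, at most 1000 bases apart, were compared because APE1 and GFA1 lie side by side. Among 2393 such pairs of tested genes, both were called in the same direction in 65 and in opposite directions in 51, and in 3 of the 51 both changed at least 2-fold. YKL102C (chosen after its value was seen) lies 379 bases upstream of APE1 and had 4.95 and 7.26 CPM with the dye, against 0.819 and 0.325 CPM without it (3.40 ± 0.54), APE1 had 171 and 160.2 CPM with the dye, against 485 and 507 CPM without it (-1.58 ± 0.10), and GFA1, 764 bases downstream of APE1, had 557 and 716 CPM with the dye, against 243 and 248 CPM without it (1.37 ± 0.12). All 3 lie on the minus strand of chromosome XI. A further pair, chosen likewise, was NCW2 (2.11 ± 0.21) and UPS1, 272 bases downstream of it (-0.53 ± 0.08).

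Small open reading frames within the ribosomal DNA were among the genes that varied most between replicates. YLR154C-G had 7.2 and 54.4 CPM with the dye, against 157 and 40.9 CPM without it, and YLR154W-A had 54.8 and 211 CPM with the dye, against 182 and 14.7 CPM without it, so neither parted the groups.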
